A study of Homo sapiens with 12 samples.

Results

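The transcriptome described here is that of SJSA-1 osteosarcoma cells carrying a stable scramble shRNA (shNC), the control cells of a study of RUNX2 silencing. The established human line SJSA-1 is known for amplification of MDM2. The libraries were chosen by their label alone and are 6, shNC-1 to shNC-6, of the 12 in the series. The cells came from a commercial cell bank, were grown in RPMI medium with newborn calf serum and received a lentivirus whose shRNA has no intended target, together with a green fluorescent protein and a puromycin resistance gene, so every library comes from infected and puromycin-selected cells and no uninfected cells were analysed here. The 6 libraries are described by themselves, with no comparison between conditions.

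An osteosarcoma is a malignant tumour whose cells make bone matrix. Osteoblasts, the bone-forming cells, depend on the transcription factors RUNX2 and SP7 and secrete type I collagen, alkaline phosphatase, osteocalcin and bone sialoprotein, whereas chondrocytes depend on SOX9 and secrete type II collagen and aggrecan. Cell lines often keep the regulators of a lineage without its secreted products, and a list of expressed genes therefore shows which parts of such a programme are present in culture.

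Levels are given as FPKM (fragments per kilobase of gene length per 1000000 counted fragments), which scales counts by the length behind the deposited values. Comparisons between genes depend on that length, which was 9845 bp for RPS29, a ribosomal protein gene, and 297 bp for MT-ND4L. Where it exceeds the length of the RNA, the FPKM is too low. The libraries held 15328312 to 19992974 counted fragments each. A count of 0 in a library allows up to 3 fragments, or 0.150 to 0.196 counts per 1000000 counted fragments (CPM), a limit that covers counting error only. Between pairs of libraries the chi-square statistic of the counts was 3.72 to 20.4 times its degrees of freedom, so no library was a copy of another. On the first principal component of the log2 CPM, which held 51.9% of the variance, shNC-1 (19.1) and shNC-4 (-17.5) lay at opposite ends and the other libraries between them. The sources used here do not say whether the 6 libraries came from separate cultures or infections, so the spread given here as SD (n = 6) may be technical.

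A gene was called expressed when its FPKM was at least 1 in all 6 libraries. By this rule 12209 of 59248 rows of the table were expressed, among them 10145 of 19831 protein-coding genes (51.2%) and 857 of 14734 long non-coding RNA genes (5.82%). No fragment was counted in any library for 22066 rows, 2598 of them protein-coding. The levels spanned a wide range: 15 rows had a mean of 1000 FPKM or more, 277 lay between 100 and 1000, 4403 between 10 and 100 and 9069 between 1 and 10. The median level of an expressed protein-coding gene was 8.35 FPKM, and that of an expressed long non-coding RNA gene was 2.70 FPKM. Within a library the FPKM values summed to between 241125 and 259605, so that 1 FPKM corresponds to 3.85 to 4.15 TPM (transcript shares that sum to 1000000 in every library) and the threshold is stricter than the same number on that scale.

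Protein-coding genes took 96.1% ± 0.117 of the counts (SD, n = 6), with 95.9% in the lowest library, 96.2% as the median and 96.3% in the highest. Long non-coding RNA genes took 1.53% ± 0.0371 and pseudogenes of all types 0.870% ± 0.00963. On the FPKM scale, which weights short genes up, the protein-coding share was 88.8% ± 0.572, the pseudogene share 3.65% ± 0.0692 and the long non-coding share 2.75% ± 0.0940. The counts were spread over many genes. The 100 most abundant genes held 16.3% ± 0.469 of them, and 1105 ± 41.8 genes were needed to reach 50%.

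The highest levels belonged to the mitochondrial genome, which encodes subunits of the respiratory chain and its own ribosomal and transfer RNAs. Its genes filled the first 9 places in the order of mean FPKM and held 15 of the first 25. MT-ND4L, a subunit of complex I, led with a lowest value of 3463 FPKM, a median of 4738 and a highest of 6087. MT-CO1, the catalytic subunit of cytochrome c oxidase, ranged from 4199 to 4878 FPKM with a median of 4447, and these 2 genes could not be ordered, since their ranges overlapped. MT-RNR2, the large mitochondrial ribosomal RNA, ranged from 3147 to 4529 FPKM around a median of 3512. MT-ATP6, a subunit of ATP synthase, was more even between libraries, from 3436 to 3741 FPKM (3547 ± 119). Together the genes of the mitochondrial genome made up 15.9% ± 1.72 of the summed FPKM but 3.66% ± 0.40 of the counts, with the highest share of counts in shNC-1 (4.39%) and the lowest in shNC-4 (3.28%). MT-ND4L overlaps MT-ND4 and MT-ATP6 overlaps MT-ATP8 on the same strand. Among the 13 proteins that it encodes the relative spread was widest for MT-ND3. This gene, 346 bp long, ranged from 819 FPKM in the lowest library to 2672 in the highest, whereas MT-ATP6, 681 bp long, differed by far less.

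**Figure D1:**
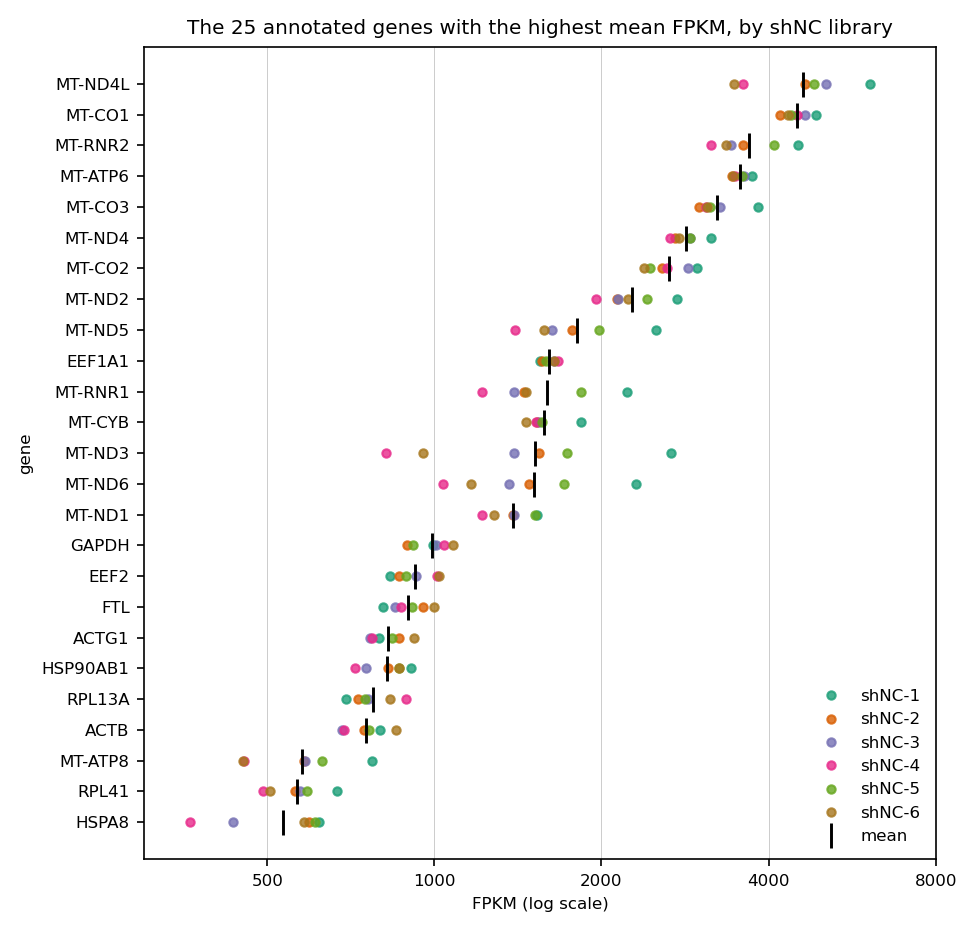
FPKM (log axis) of the 25 annotated genes with the highest mean, with one coloured point per shNC library and a black bar at the mean. MT-ND4L and MT-CO1 lie highest, EEF1A1 is the first nuclear gene at a mean of 1608 FPKM, and MT-ND3 has the widest relative spread, from 819 to 2672 FPKM.

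Among nuclear genes, EEF1A1 (GRCh38 chromosome 6, 73489308 to 73525587, minus strand), the elongation factor that brings aminoacyl-tRNA to the ribosome, had the highest level, from 1548 to 1670 FPKM with a median of 1613. Its range did not overlap that of the next nuclear gene, GAPDH (chromosome 12, 6534512 to 6538374, plus strand), a glycolytic enzyme at 893 to 1082 FPKM. From GAPDH down to ACTB the range of each gene overlapped that of the next. EEF2, the translocation factor of the ribosome, had 922 ± 77.4 FPKM, FTL, the light chain of ferritin, 898 ± 70.6, ACTG1, a cytoplasmic actin, 825 ± 59.5, and HSP90AB1, a constitutive chaperone, 822 ± 72.0. RPL13A and ACTB, another cytoplasmic actin, came next. RPL41, at 491 to 668 FPKM, and HSPA8, the constitutive HSP70 chaperone, completed the 25, and the ranges of both lay below that of ACTB, at 681 to 851 FPKM. HSPA8 had the widest relative spread of the nuclear genes in this group, from 363 FPKM in shNC-4 to 620 FPKM in shNC-1.

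Gene families gave the same picture on a broader base. The 13 mitochondrially encoded proteins made up 12.9% ± 1.24 of the summed FPKM. Cytosolic ribosomal proteins made up 6.22%, chaperones 2.45%, translation factors 2.30%, splicing and RNA-binding proteins 1.63% and glycolytic enzymes 1.15%. The splicing and RNA-binding family was led by NPM1, a nucleolar chaperone, at 526 ± 57.2 FPKM. Actin-binding proteins were led by TMSB10, an actin-sequestering peptide, at 468 ± 85.8 FPKM. Nuclear respiratory chain subunits were led by ATP5F1B, a subunit of ATP synthase, at 365 ± 16.5 FPKM. Among solute carriers SLC25A5, the mitochondrial ADP/ATP carrier, led with 241 ± 16.4 FPKM, among proteasome subunits PSMD2 with 165 ± 12.8 FPKM, and among annexins and S100 proteins ANXA2 with 174 ± 13.6 FPKM. In the MHC class I group B2M, the shared light chain, led with 79.7 ± 5.26 FPKM.

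**Figure D2:**
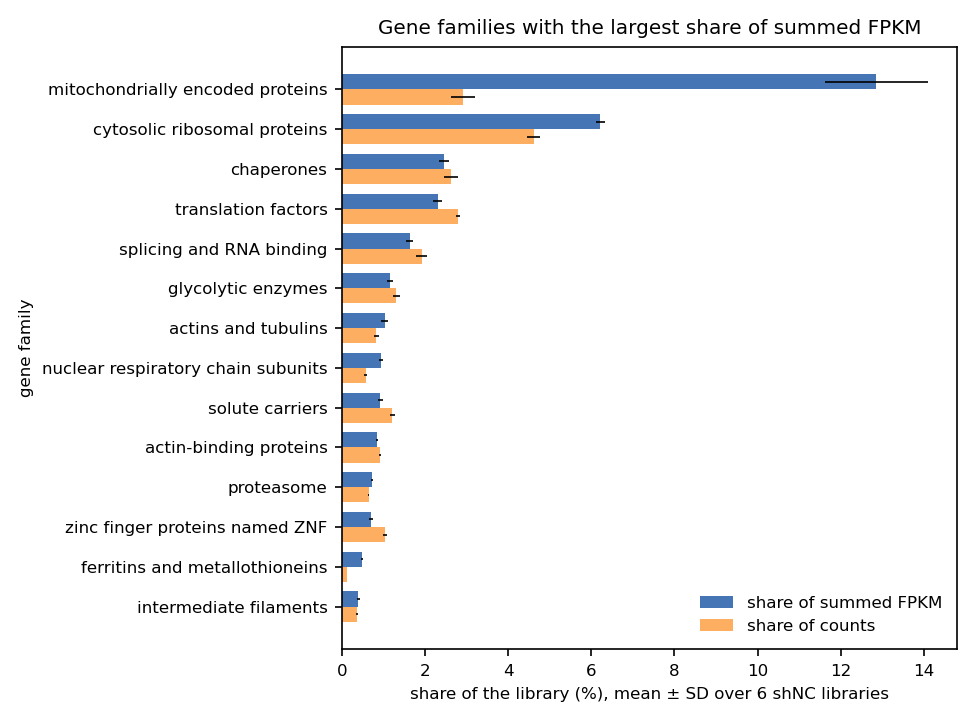
Share of the library (percent, mean ± SD over 6 shNC libraries) taken by the 14 gene families with the largest share of summed FPKM, as blue bars, and their share of counts, as orange bars. The mitochondrially encoded proteins reach 12.9% of the FPKM but 2.92% of the counts, while translation factors take 2.30% and 2.80%.

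Intermediate filaments were led by a hair keratin. KRT81, a keratin of the hair cortex, had 321 FPKM in the lowest library, 372 as the median and 479 in the highest, above VIM, the filament protein of mesenchymal cells, at 251, 264 and 297 FPKM. The ranges of the 2 genes did not overlap. LMNB2 and LMNA, the nuclear lamins, followed with 66.4 ± 5.56 and 50.7 ± 4.42 FPKM. The neighbouring hair keratins KRT86 (9.75 ± 0.960 FPKM) and KRT83 (0.0948 ± 0.0318 FPKM), named after their values were seen, were far lower. Reads of near-identical keratin genes can be divided between them.

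The long non-coding RNA genes were led by NORAD, a cytoplasmic RNA that binds Pumilio proteins, at 162 to 199 FPKM with a median of 188. SNHG29, a snoRNA host gene, followed with 142 ± 21.2 FPKM and LINC01029 with 120 ± 12.1 FPKM. The processed pseudogenes RPS28P7 (252 ± 11.6 FPKM), EEF1A1P5 (245 ± 12.5 FPKM) and RPL13AP5 (179 ± 13.5 FPKM) are intronless copies of expressed genes, and reads of parent and copy cannot be told apart with certainty. The parent of RPS28P7, RPS28, was listed at 15.4 ± 1.93 FPKM. The transcribed pseudogene ENSG00000237550 stood at 328 ± 17.3 FPKM, the unprocessed pseudogenes MTATP6P1 and MTND2P28, nuclear copies of mitochondrial genes, at 191 ± 67.9 and 149 ± 43.6 FPKM, and FRG1CP, SBDSP1 and UBBP4 at 23.4 to 27.7 FPKM. Among unitary pseudogenes C19orf48P had 33.6 ± 4.30 FPKM and MYH16 24.2 ± 1.85 FPKM. The libraries were made from polyadenylated RNA, so small RNAs were not captured as such. RN7SL2, an RNA of the signal recognition particle, was listed at 232 ± 209 FPKM, MT-TP, a mitochondrial transfer RNA, at 515 ± 122.7 FPKM, SNORA11F at 25.1 ± 5.39 FPKM and the U6 copy RNU6-26P at 20.2 ± 2.87 FPKM. The miRNA genes listed highest, MIR621 at 93.0 ± 6.42 FPKM, MIR4477B at 53.7 ± 6.82 and MIR3189 at 26.1 ± 5.59, cannot stand for mature miRNAs in such libraries, and all exon bases of MIR621 are shared with SLC25A15.

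Some housekeeping genes were listed low or at 0, among them genes with shared exons. Of protein-coding genes with more than 75% of their exon bases shared with another annotated gene, 3.44% were expressed and 50.9% had 0 counts in every library, against 46.9% and 16.5% of genes with no shared base. The shares did not follow the overlap evenly, since 64.6% of genes sharing up to 25% were expressed and 4.42% had 0 counts, and of those sharing 50% to 75% the values were 29.2% and 13.5%. EEF1G, another elongation factor subunit, had 0 counts in all libraries, with 99.7% of its exon bases shared. FTH1, the heavy chain of ferritin, had 9.12 ± 3.32 FPKM with 63.2% shared, against 898 for the light chain FTL. HSPB1 (0.124 ± 0.0802 FPKM) and TMSB4X (6.30 ± 0.666 FPKM) share no exon base in the annotation and were low as well. Of 79 ribosomal protein genes 53 exceeded 100 FPKM and 8 stayed under 20 FPKM. Among these 8 were RPS10 at 1.67 FPKM, with 31.5% of its exon bases shared, and RPL36A at 3.57 FPKM, with 22.4% shared. RPS29, at 9.99 FPKM, shared 8.20% and had a deposited length of 9845 bp. RPS15A, at 16.5 FPKM, shared 3.26% and had a deposited length of 6679 bp. These genes were singled out after their values were seen. For such genes a low value here cannot by itself be read as a low level of the RNA, and its cause was not tested.

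The label of an osteosarcoma cell was then set against markers of the osteoblast. Of 20 osteoblast markers 6 were expressed, 12 were counted below the threshold and 2 had no count, beside 51.2% of all protein-coding genes that were expressed. At least 1 TPM in every library was reached by 11 of the 20. RUNX2 itself, the regulator that the study silences, was expressed at a modest level, with 4.34 FPKM in the lowest library, 4.52 as the median and 5.68 in the highest. CDH11, osteoblast cadherin, ranged from 4.33 to 6.54 FPKM around 5.00, and SPP1, osteopontin, from 2.12 to 3.14 around 2.84. SPARC, osteonectin, a collagen-binding matrix protein made by many mesenchymal cells, stood far above them at 272, 294 and 322 FPKM. The later regulator and the mineralizing products were at or near 0. SP7 and IBSP, which encodes bone sialoprotein, had 0 counts in every library, ALPL, alkaline phosphatase, had 3 counts in all libraries together and BGLAP, osteocalcin, 10. COL1A1, which encodes the main chain of type I collagen, was at 0.387 to 0.811 FPKM and COL1A2 at 0.0421 to 0.0702 FPKM. DLX5 and PTH1R, the receptor of parathyroid hormone, were at 0.528 ± 0.0467 and 0.284 ± 0.0723 FPKM. MSX2, a homeobox gene, was also expressed, at 1.47 ± 0.169 FPKM. By its markers the line expressed some regulators and matrix-binding proteins of the osteoblast. Of the 13 defining markers 5 were expressed and 5 lay under 0.1 FPKM.

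No osteocyte marker of 6 passed the threshold in all libraries. PDPN, podoplanin, came nearest, at 0.941 to 1.41 FPKM, and passed when the median library was used. PHEX had 0.687 ± 0.112 FPKM, and SOST, DMP1, MEPE and FGF23 had 1 to 7 counts in all 6 libraries together. Among 13 chondrocyte markers SOX9 was expressed, at 40.3, 43.5 and 48.0 FPKM, and its level exceeded that of RUNX2 in every library. The products that SOX9 is known to activate in cartilage were near 0, with 10 counts in all for COL2A1, 3 for ACAN and 1 for COMP, and MATN1 and COL10A1 stood at 0.0835 ± 0.0375 and 0.155 ± 0.0710 FPKM. SOX5 and SOX6, its partners in chondrocytes, were at 0.0991 and 0.130 FPKM.

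Of 21 fibroblast and mesenchyme markers 11 were expressed, near the 51.2% of all protein-coding genes. VIM and CD44, the hyaluronan receptor (120 to 143 FPKM, median 126), were highest, and FN1, fibronectin, ranged from 45.7 to 117 FPKM with a median of 56.5. CDH2, N-cadherin, was even between libraries, at 34.3 ± 0.839 FPKM. The repressors of epithelial genes ZEB1 and SNAI2 stood at 12.3 ± 1.49 and 13 ± 1.45 FPKM and TWIST1 at 4.01 ± 0.278 FPKM. Markers of resident fibroblasts were near 0, with 5 counts in all for DCN, 6 for LUM, 7 for COL3A1 and 6 for PRRX1, and POSTN had none. PDGFRB, at 0.770 to 1.87 FPKM, lay on both sides of the threshold.

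Outside the osteoblast and mesenchyme lists, 17 of 125 markers of 16 other cell types were expressed, beside 51.2% of all protein-coding genes. No marker of leukocytes, erythroid cells, adipocytes or cardiac muscle passed, and PTPRC, CD3E and SPI1 had 0 to 2 counts in all libraries together. Of the erythroid markers HBB had 1 count, ALAS2 6 and GATA1 2. Of the adipocyte markers ADIPOQ and LEP had no count and PLIN1 7, and FABP4 stood at 0.627 ± 0.277 FPKM and PPARG, the adipocyte regulator, at 0.122 ± 0.0604. MYH6, MYH7 and NPPA of cardiac muscle had 0.00439, 0.0628 and 0.0934 FPKM, and NKX2-5 fell short through shNC-4 alone, at 0.748 FPKM there and up to 1.84 FPKM elsewhere. The muscle regulators MYOD1, MYOG and PAX7 were at 0 counts, CKM had 2, and MYH3, embryonic myosin, was the expressed marker of that list at 1.77 ± 0.209 FPKM. Of 8 smooth muscle markers 3 passed, SMTN, smoothelin, at 6.91 ± 0.952 FPKM, MYL9, a myosin light chain, at 6.05 ± 0.631 and ACTA2 at 2.04 ± 0.235, with TAGLN at 1.14 ± 0.198, MYH11 at 0.0995 and CNN1 at 0.0937 FPKM.

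Some lists held few high markers among low ones. KRT8 and KRT18, the simple epithelial keratin pair, were at 32.4, 34.3 and 39.7 FPKM and at 46.8, 48.7 and 53.8 FPKM, and KRT7 at 6.39 ± 1.43 FPKM, whereas CDH1, E-cadherin, had 0 counts, EPCAM 7, KRT5 3 and KRT14 1. TIE1, a receptor tyrosine kinase of endothelium, was at 18.8, 22.6 and 25 FPKM, while PECAM1, CDH5 and VWF stood at 0.263, 0.0739 and 0.0340 FPKM. MMP9, a gelatinase that osteoclasts secrete, was at 20.5, 30.6 and 51.8 FPKM, while ACP5 (1.03 ± 0.164 FPKM), CTSK (0.961 ± 0.205), DCSTAMP (0.0334) and CALCR (0.00811) did not pass. NEFL, neurofilament light chain, was at 12.8 ± 0.920 FPKM with RBFOX3, SNAP25 and STMN2 at 0.0324, 0.749 and 0.00391 FPKM. In the glial list, with 2 of 8 expressed, NGFR, the p75 neurotrophin receptor, was at 4.89 ± 1.08 FPKM, beside SOX10 at 0.0345 FPKM. In the melanocyte list MITF was at 6.89 ± 0.517 FPKM and DCT, a pigment enzyme, at 2.87 ± 0.263, with MLANA at 0.786 and TYR at 0.0388. SERPINA1 was at 1.54 ± 0.305 FPKM with ALB and APOA1 at 0.00311 and 0.0348 FPKM. LIN28B, an RNA-binding protein of embryonic cells, was at 3.53 ± 0.311 FPKM with POU5F1 at 0.213, DDX4 at 0.00485 and NANOG at 0. Of 166 lineage markers in all, 34 were expressed, 94 had a mean under 0.1 FPKM and 20 of these had no count at all.

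**Figure D3:**
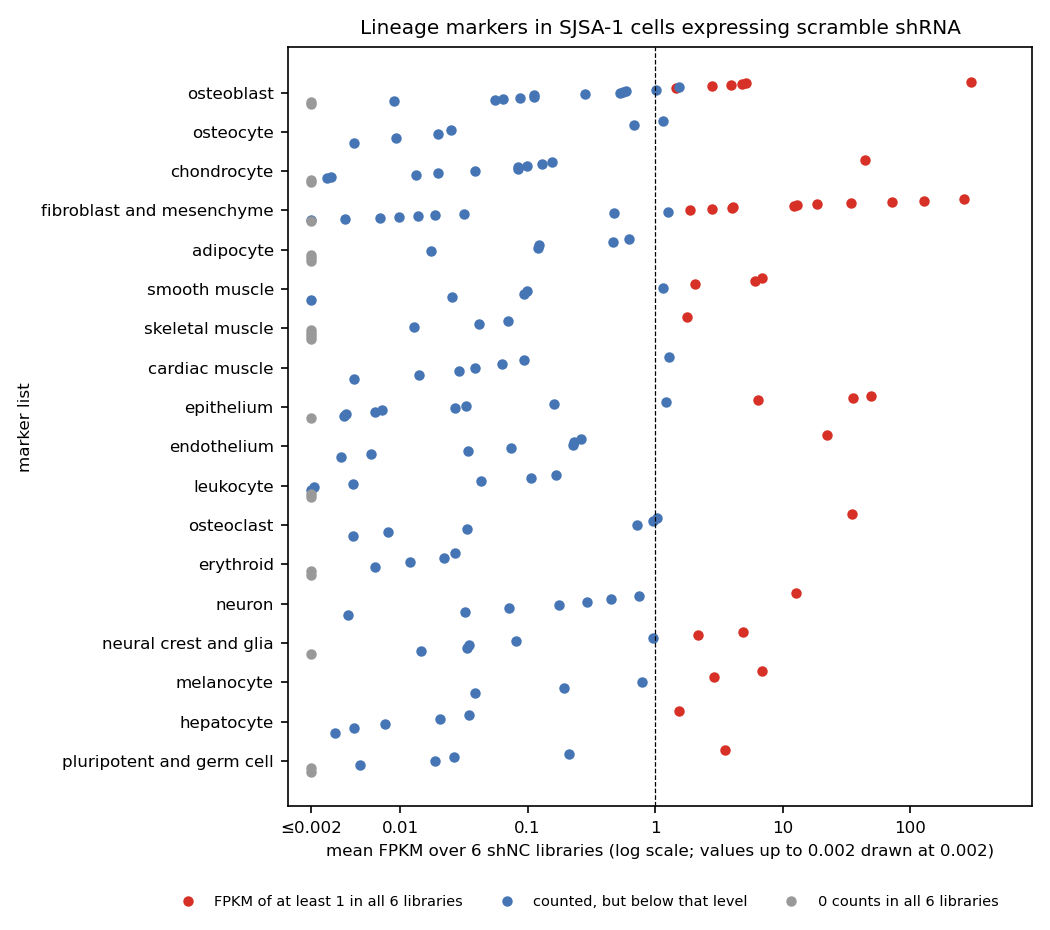
Mean FPKM over the 6 shNC libraries (log axis, values up to 0.002 drawn at 0.002) of the markers in 18 cell type lists, one point per gene, red where FPKM was at least 1 in all 6 libraries, blue where counted below that level and grey where no fragment was counted. The osteoblast and mesenchyme rows hold 17 of the 34 red points, while the osteocyte, leukocyte, erythroid, adipocyte and cardiac rows hold none.

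MDM2 and genes around it on the long arm of chromosome 12 were expressed. MDM2, a ubiquitin ligase, was at 60.8, 66.7 and 77.5 FPKM. Of stress and growth arrest genes GDF15, a stress cytokine, was at 178 to 404 FPKM, TNFRSF10B, a death receptor, at 121 ± 13.2 and CDKN1A, the cyclin-dependent kinase inhibitor p21, at 65.9 ± 8.21 FPKM. Of 18 genes in 12q13-15, 14 were expressed, beside 51.2% of all protein-coding genes. MARS1 (60.9 ± 4.42 FPKM), HMGA2, an architectural chromatin protein of embryonic tissue (47.3 ± 4.70), and CDK4 (42.9 ± 3.54) followed MDM2, whereas GLI1 stood at 0.176 ± 0.0898 FPKM. The level of an RNA does not give the copy number of its gene, which was not measured in these files.

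The counts of expressed genes that follow stand beside 51.2% of all protein-coding genes. Of 16 tumour suppressor genes 14 were expressed, RB1 at 28.8 ± 1.31 FPKM, DAXX at 26.6 ± 0.979 and NF2 at 22.0 ± 3.37. The exceptions lie next to each other on chromosome 9. CDKN2A, which encodes p16 and p14ARF, had 1 count in all 6 libraries together and CDKN2B none. MTAP, the neighbouring gene of the methionine salvage pathway, had a mean of 0.0416 FPKM, whereas KLHL9 on one side of them stood at 20.7 ± 0.931 FPKM and DMRTA1 on the other at 1.28 ± 0.129. These 3 neighbours were chosen after their values were seen. Of 12 telomere genes 11 were expressed, led by NOP10 (83.9 ± 8.14 FPKM), NHP2 (57.5 ± 4.40), DKC1 (45.7 ± 1.78) and GAR1 (30.5 ± 3.99), all proteins of the telomerase RNA complex. TERT, the catalytic subunit of telomerase, named after its value was seen, was at 2.08, 2.19 and 2.31 FPKM.

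Receptor, ligand and matrix genes are given as RNA levels, and no protein at the cell surface was measured. Of 36 receptor tyrosine kinases 14 were expressed, led by AXL at 164, 176 and 187 FPKM, EPHA2, an ephrin receptor, at 77.9, 99.6 and 135, MET, the receptor of hepatocyte growth factor, at 61.8, 63.7 and 65.2, and EGFR at 25.1, 26.8 and 30.6. In this order the ranges of these 4 receptors did not overlap. Among surface antigens studied as targets in sarcoma 9 of 17 were expressed, also near the 51.2% of all protein-coding genes, with ALCAM at 46.8 ± 7.24 FPKM, MCAM at 29.9 ± 2.58 and CD276 (B7-H3) at 16.5 ± 1.58 after EPHA2. ITGB1, the common beta subunit, led 15 expressed integrins of 30 with 211 ± 7.42 FPKM.

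Of 23 secreted cytokines 13 were expressed, beside 51.2% of all protein-coding genes. After GDF15 came IL1B, interleukin-1 beta, at 66.6, 93.4 and 116 FPKM, CXCL8, interleukin-8, at 39.5, 59.3 and 84.6, and LIF at 21.5, 36.4 and 44.2. The growth factors, 17 of 32 expressed and thus near that share too, were led by the matricellular proteins CCN1 (248 ± 12.3 FPKM) and CCN2 (64.5 ± 16.3) and the EGF receptor ligands TGFA (52.6 ± 13.9) and HBEGF (52.0 ± 6.36). Matrix genes, 24 of 34 expressed, were led by SPARC, THBS1 (thrombospondin-1, 191 ± 19.9 FPKM), LAMC1 (a laminin chain, 74.1 ± 4.47) and FN1. The collagens were led by COL6A3 at 46.3 ± 3.75 FPKM, and 12 of 44 were expressed. Of metalloproteases and their inhibitors 12 of 20 were expressed, with MMP14, a membrane-bound collagenase, at 116 ± 15.8 FPKM, TIMP2 at 47.6 ± 2.03, ADAM9 at 46.4 ± 2.26 and TIMP1 at 35.9 ± 3.10.

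Of 17 cancer-testis antigens, genes of the germ line that tumours can express, 9 were expressed, near the 51.2% of all protein-coding genes. MAGEB2 was at 80.9, 84.8 and 88.7 FPKM, SSX1 at 59.0, 72.4 and 74.4, MAGEA3 at 59.1, 62.3 and 65.0 and MAGEA1 at 32.9, 36.4 and 38.8. MAGEA4 had 2 counts in all libraries and CTAG1B 26. These genes have near-identical paralogs, so the division of reads among them is uncertain. Positional genes were expressed at lower levels. HOX genes, 20 of 39 expressed, were led by HOXB9 at 18.3 ± 2.03 FPKM, and 10 of 28 limb and positional factors were expressed, led by TBX3 at 27.1 ± 3.45, FOXD1 at 8.81 ± 1.15, SHOX2 at 4.79 ± 0.411 and FOXC1 at 4.70 ± 0.287. Of 400 olfactory receptor genes 10 were expressed, led by OR51B5, which lies beside the beta-globin genes, at 64.5, 67.9 and 74.7 FPKM.

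Further regulators named by the most abundant member of their family were ETS1 (67.7 ± 4.59 FPKM), the zinc finger protein ZNF622 (76.6 ± 4.15), KLF6 (46.7 ± 5.76), YAP1, the Hippo pathway coactivator (39.4 ± 1.66), SMAD3, a mediator of TGF-beta signals (36.9 ± 3.01), and FOXM1, a regulator of mitosis genes (21.8 ± 1.94). All 8 SMAD genes were expressed, and 5 of 19 SOX genes, beside 51.2% of all protein-coding genes.

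Genes of state-dependent programmes were counted next, beside 51.2% of all protein-coding genes that were expressed. Of 24 proliferation genes 23 were expressed, led by CCND1 (139 ± 13 FPKM), PCNA (110 ± 22.3), TOP2A (92.1 ± 10.8) and CCNB1 (78.0 ± 12.8). All 20 genes of the ATF4 and unfolded protein responses were expressed, led by CALR (459 ± 32.5 FPKM), HSPA5 (345 ± 32.2), HSP90B1 (335 ± 27.6) and PSAT1 (194 ± 11.7). Heat shock genes (10 of 12) were led by HSP90AB1, HSPA8, HSP90AA1 (402 ± 39.2) and HSPD1 (271 ± 19.2). Hypoxia genes (18 of 20) were led by LDHA, lactate dehydrogenase A (287 ± 35.2), PGK1 (179 ± 26.4), SLC2A1, a glucose transporter (51.3 ± 6.35), and BNIP3L (43.0 ± 7.30). Sterol synthesis genes (16 of 17) included HMGCS1 (23.8 ± 5.87) and FDFT1 (20.4 ± 2.61). Immediate early genes (15 of 20) were led by FOSL1 (131 ± 15.2), IER3 (60.5 ± 11.4), KLF6 and DUSP1 (45.7 ± 10.5). Interferon response genes had the lowest share of these lists, 10 of 20, near that of all protein-coding genes, with ISG15 (13.2 ± 2.33), IFIT3 (8.36 ± 2.23) and STAT2 (8.30 ± 0.921) among them.

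The spread between libraries was described by the biological coefficient of variation (BCV), the relative SD that remains after counting error is taken out, estimated by edgeR with moderation towards the trend. Over 14958 genes the common BCV was 0.101. Among the 11342 genes with a mean of at least 5 CPM (after TMM scaling) the median was 0.0890 and the 5th and 95th percentiles were 0.0671 and 0.156. A BCV of 0.3 or more was found for 13 genes (0.115%) and of 0.2 or more, a threshold added after the values were seen, for 171 genes (1.51%). The count of 13 became 5 without shNC-1, 6 without shNC-4 and 24 without shNC-6, so it rests on single libraries. The steadiest genes at 100 CPM or more were CKAP4, ENTPD4, PRPF6, a splicing factor, KDM1A, a histone demethylase, and EIF2A, all with a BCV of 0.062. CKAP4 ranged from 203 to 210 CPM and EIF2A from 277 to 282 CPM over the 6 libraries.

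**Figure D4:**
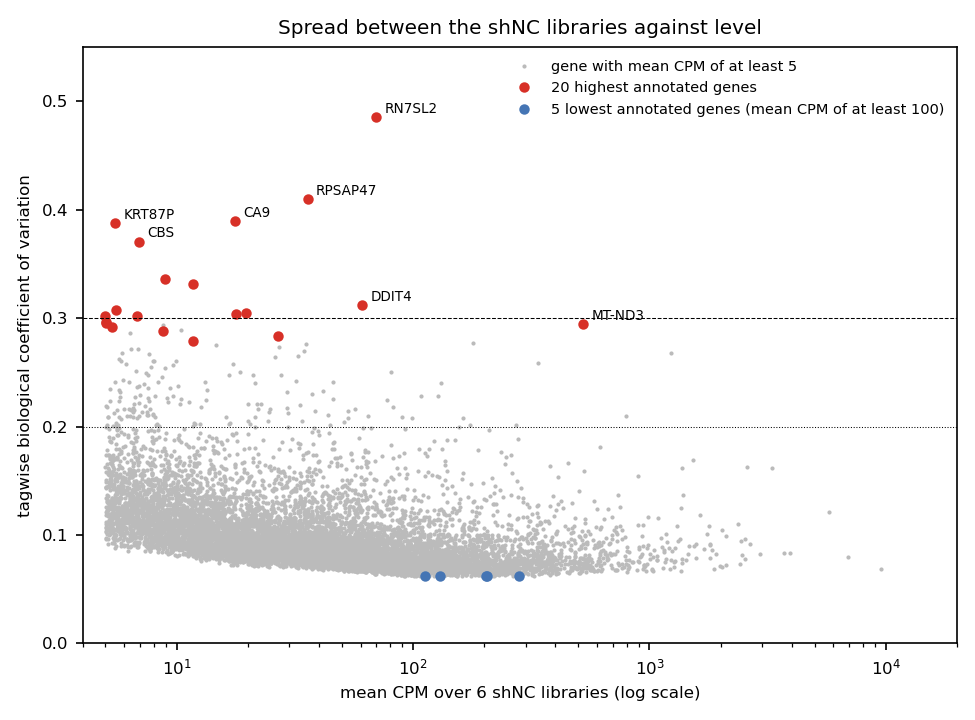
Tagwise biological coefficient of variation against mean CPM (log axis) for genes with at least 5 CPM, with the 20 highest annotated genes in red and the 5 lowest at 100 CPM or more in blue. Dashed and dotted lines mark 0.3 and 0.2, and RN7SL2 is highest at 0.485 while the blue points lie at 0.062.

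RN7SL2 varied most. Its level was 202 CPM in shNC-1 and 32.0 to 55.5 CPM in the other libraries. RPSAP47, a processed pseudogene of a ribosomal protein, was also highest in shNC-1, at 76.5 CPM, and lowest in shNC-4, at 14.4 CPM, with a median of 35.0. MT-ND3, at 949 CPM in shNC-1 and 279 CPM in shNC-4, and MT-TN, a mitochondrial transfer RNA, at 37.1 and 10.5 CPM, showed the same order. These are all genes under 1000 bp. KRT87P, a keratin pseudogene, was highest in shNC-5 (11.4 CPM) and PTMAP5 in shNC-1 (8.41 CPM), and NMRAL2P was highest in shNC-2 (22.4 CPM) and lowest in shNC-1 (4.55 CPM), as was OSGIN1, an oxidative stress gene (9.46 and 2.22 CPM).

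The variable protein-coding genes were led by CA9, carbonic anhydrase IX, a textbook target of the hypoxia-inducible factors. CA9 shares 35.7% of its exon bases with ARHGEF39. It was at 36.3 CPM in shNC-3 and 24.1 CPM in shNC-4, above the other libraries at 8.0 to 14 CPM. DDIT4, an inhibitor of mTORC1 induced by hypoxia and stress, was at 112 CPM in shNC-4, 73.5 in shNC-3 and 27.6 to 56.8 in the rest, and TNFSF15, a ligand of the TNF family, at 29.8 and 23.4 CPM in these libraries and 7.78 to 16.2 in the others. FUT1, a fucosyltransferase, was likewise highest in shNC-4 (7.98 CPM) and shNC-3 (6.5 CPM), and PPFIA4 in shNC-3 (20.4 CPM) and shNC-4 (13.8 CPM). CBS, cystathionine beta-synthase, had another order, with 12.3 CPM in shNC-6 and 2.61 CPM in shNC-1. NR4A2, an immediate early nuclear receptor, was highest in shNC-3 at 8.83 CPM, as was DEPP1 at 14.9 CPM, and KRTAP2-3 was highest in shNC-1 at 7.95 CPM. HSPA1B, an inducible HSP70 gene with 36.6% of its exon bases shared with another gene, ranged from 15.2 CPM in shNC-1 to 47.8 CPM in shNC-6. The pseudogenes STAG3L1 and ENSG00000196656 completed the 20 annotated genes with the highest BCV. Of rows without an Ensembl identifier, which were ranked but not named, 3 had a BCV of 0.287 to 0.294, within the range of these 20.

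The pair shNC-3 and shNC-4 recurred. Among the 171 genes with a BCV of 0.2 or more, shNC-3 and shNC-4 were the 2 highest libraries for 64 (37.4%), against 15.8% of all 11342 ranked genes. The 4 examples that follow were chosen after their values were seen. ITGB3 among them had a mean of 8.07 FPKM and shares 33.2% of its exon bases with another gene. FN1 was at 2009 and 1751 CPM in these libraries and at 783 to 1041 CPM in the other 4, NDRG1 at 607 and 381 CPM against 236 to 311 CPM, ITGB3, a vitronectin receptor subunit, at 58.3 and 50.8 CPM against 22.9 to 28.9 CPM, and TXNIP, a thioredoxin-binding protein that responds to glucose, at 245 and 266 CPM against 91.9 to 186 CPM. For each of these 4 genes the 2 libraries did not overlap the rest. MMP9 followed the same order, at 116 and 119 CPM against 49.3 to 81.3.

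Gene lists also set these libraries apart, though the share of all ranked genes above their mean was not counted. For comparison, the 4893 ranked genes of 4000 to 8000 bp had median log2 deviations from -0.0234 in shNC-1 to 0.0109 in shNC-4. Of 18 ranked hypoxia genes 17 were above their mean in shNC-3 and 15 in shNC-4, but 5, 3, 3 and 4 in shNC-1, shNC-2, shNC-5 and shNC-6, and 3 of the 18 had a BCV of 0.2 or more, beside 1.51% of all ranked genes. P4HA1, a collagen prolyl hydroxylase, was at 177 and 137 CPM in shNC-3 and shNC-4 and 103 to 126 CPM elsewhere. Of 25 ranked matrix genes 18 were above their mean in each of shNC-3 and shNC-4. Of 23 proliferation genes 2 were above their mean in each of these libraries and 8 in shNC-2. In shNC-1 22 were above it, in shNC-5 19 and in shNC-6 17. PCNA, the sliding clamp of DNA replication, was at 215 CPM in shNC-1, 136 in shNC-3 and 113 in shNC-4. None of 10 heat shock genes was above its mean in shNC-3 or shNC-4, and HSPA8 was at 2082 and 1738 CPM there against 2808 to 3087 CPM in the others.

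Further lists set apart single libraries or several of them. None of 9 ranked cytokine genes was above its mean in shNC-1, where their median log2 deviation was -0.46, and CXCL8 was at 92.1 CPM there, 190 CPM in shNC-2 and 120 to 148 CPM in the rest. Interferon response genes had a median deviation of 0.31 in shNC-2 and -0.29 in shNC-1, and IFIT3 was at 32.9 CPM in shNC-2 against 16.2 to 21.8 CPM. Sterol synthesis genes were above their mean for 14 of 16 in shNC-1, 12 in shNC-5 and 15 in shNC-6. In shNC-2, shNC-3 and shNC-4 they were above it for 1, 1 and 4. Since neither culture dates nor densities are given in the sources used here, the part that growth conditions or handling had in these differences was not tested.

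**Figure D5:**
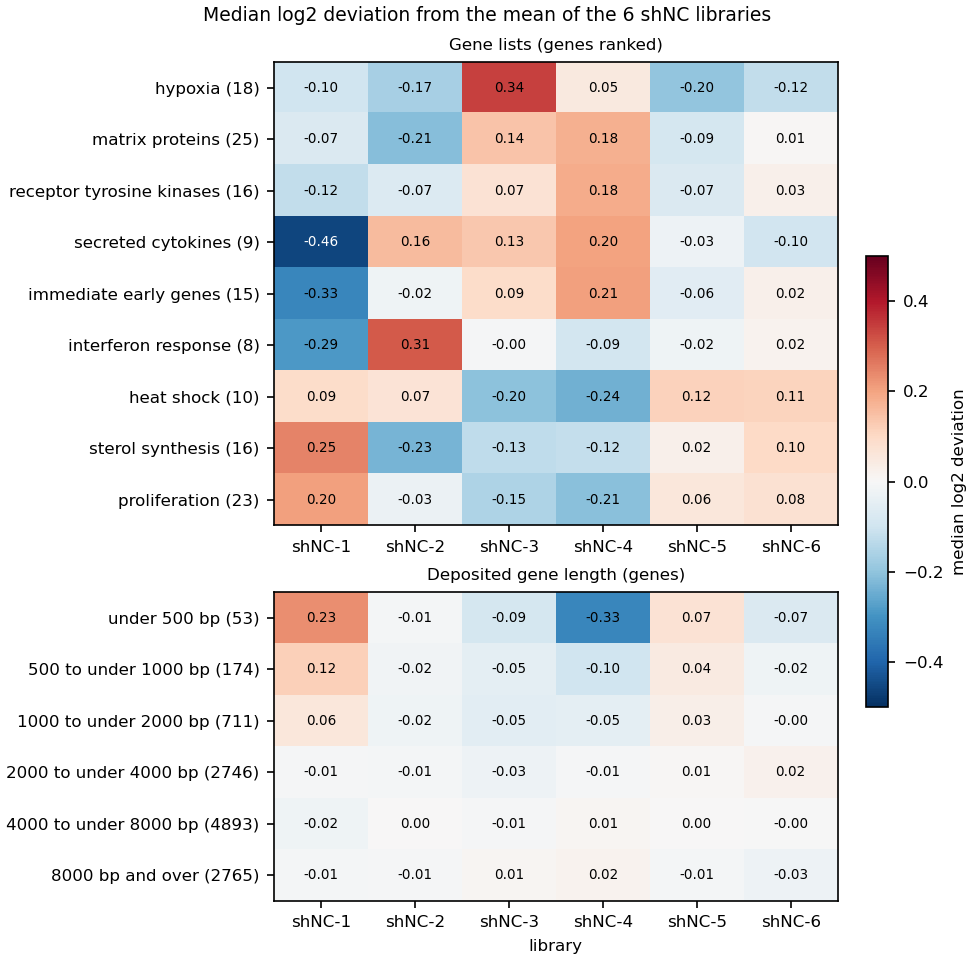
Median log2 deviation of each shNC library from the mean of the 6, for 9 gene lists (upper) and for genes grouped by deposited length (lower), with the number of ranked genes in brackets, red above and blue below the mean. Hypoxia genes reach 0.34 in shNC-3, cytokines -0.46 in shNC-1, and genes under 500 bp run from 0.23 in shNC-1 to -0.33 in shNC-4.

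Gene length moved with the libraries too. The 53 ranked genes shorter than 500 bp had a median log2 deviation of 0.23 in shNC-1 and -0.33 in shNC-4, and 22.6% of them had a BCV of 0.2 or more, against 0.651% of 2765 genes of 8000 bp or longer. Genes between 4000 and 8000 bp deviated by at most 0.02 in any library. Of the 27 variable genes under 1000 bp 20 were highest in shNC-1 and 5 in shNC-3 or shNC-4. Of 144 variable genes of 1000 bp or more 82 were highest in shNC-3 or shNC-4, and 67 were lowest in shNC-1. Of all 11342 ranked genes 24.9% were highest in shNC-1, 12.3% in shNC-3 and 23.1% in shNC-4, and 26.0% were lowest in shNC-1. Maxima in shNC-3 or shNC-4 were thus more frequent among the longer variable genes than among the short ones. The order of the libraries by their short genes was their order on the first principal component. The part of RNA fragmentation or size selection in this order was not tested.

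Promoter sequences are shown for genes on which these patterns turn, since the core hypoxia response element and the heat shock element are short known motifs. They were taken from RefSeq windows on GRCh38.p14 that run from 250 bases before to 50 after a gene's start. Windows on chromosomes 8 and Y were left out of this and every later count of windows, so genes there have none. Of the hypoxia genes 16 of 20 had a window, and of the heat shock genes 12 of 12. The first windows hold the core of the hypoxia response element, ACGTG, in capitals, here read on the opposite strand. They are the 60 bases before the CA9 start (chr9:35673868-35673927, plus strand) and the 100 bases before the P4HA1 start (chr10:73096867-73096966, minus strand, shown 5′ to 3′ on that strand).
CA9: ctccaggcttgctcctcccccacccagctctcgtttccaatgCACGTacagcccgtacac
P4HA1: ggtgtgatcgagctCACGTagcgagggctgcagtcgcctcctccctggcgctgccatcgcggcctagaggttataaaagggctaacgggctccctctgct

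In CA9 these letters begin 18 bases before the start. Not every such gene held them: PFKFB4, with a BCV of 0.224 and highest in shNC-3, had no match in the 250 bases before its start. DDIT4 had 1 match and BNIP3 2 in those 250 bases, but none in the last 60 and 100 of them. Of the 16 hypoxia windows 8 (50%) held ACGTG on either strand, against 18.7% of all 27195 promoter windows and 24.4% of 8623 windows of ranked protein-coding genes. Among variable genes highest in shNC-3 or shNC-4 the share was 30.4% (17 of 56).

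The 150 bases before the starts of HSPA1A (chr6:31815393-31815542, plus strand) and HSPA1B (chr6:31827588-31827737, plus strand), which are near-identical copies, and of HSPA8 (chr11:123062137-123062286, minus strand) hold the heat shock element core GAANNTTC, a motif that reads the same on both strands, in capitals.
HSPA1A: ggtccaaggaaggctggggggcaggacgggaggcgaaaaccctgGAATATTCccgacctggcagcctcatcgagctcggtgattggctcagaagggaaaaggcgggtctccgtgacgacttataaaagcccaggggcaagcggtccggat
HSPA1B: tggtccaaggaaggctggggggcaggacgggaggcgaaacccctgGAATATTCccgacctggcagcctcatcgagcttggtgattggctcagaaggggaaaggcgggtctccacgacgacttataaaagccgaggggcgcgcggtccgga
HSPA8: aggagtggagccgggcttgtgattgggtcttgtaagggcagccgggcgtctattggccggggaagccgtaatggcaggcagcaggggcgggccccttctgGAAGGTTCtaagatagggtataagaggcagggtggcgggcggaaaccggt

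The motif was present in 5 of 12 heat shock windows (41.7%) and in 5.87% of all windows. HSPA1A ranged from 15.6 CPM in shNC-4 to 42.3 CPM in shNC-6, the library in which HSPA1B was also highest, and reads of the 2 copies can be exchanged. A match is a description of letters and shows no binding.

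A further motif of the core promoter was searched. The TATA box, TATAAA, sought on the gene's strand between 40 and 16 bases before the start, was found in 13.6% of 81 windows of the 100 most abundant nuclear protein-coding genes and in 12.1% of 91 windows of protein-coding genes with a BCV of 0.2 or more, against 1.38% of ranked protein-coding genes and 2.54% of all windows. The windows of EEF1A1, GAPDH, ACTG1, SPARC, VIM, AXL, FN1 and TXNIP were looked at as well and held no TATAAA there. Only these exact letters were searched, so variant spellings of the box in these or other windows were not counted. GDF15, one of the 100 abundant genes, had it, at 381 to 832 CPM and with a BCV of 0.182, below 0.2. It is shown with the box in capitals, in the 60 bases before its start (chr19:18386098-18386157, plus strand).
GDF15: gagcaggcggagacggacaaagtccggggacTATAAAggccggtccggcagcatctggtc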

How the data were processed

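Polyadenylated RNA of 6 shNC libraries of SJSA-1 cells was analysed. The authors aligned read pairs to GRCh38 with HISAT2, made gene counts with featureCounts and deposited the counts, FPKM values computed from them, and a signal of counts divided by a size factor per library. Their versions: not given in the sources used here. The kit does not mark strand, so overlapping genes on opposite strands cannot be told apart. Of 59248 rows 572 had no Ensembl identifier (0.508% to 0.576% of counts); 58207 of 58676 identifiers had an entry in GENCODE 44, which gave types and coordinates. These rows stayed in the totals. No column lacked a sample (0 such columns).

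Dispersions came from edgeR 4.0.16 in R 4.3.3 (TMM, intercept only, mean CPM of at least 1), tested on simulated data; no test between groups and no p-value was computed, and single libraries were set against Dixon's critical value. Log2 deviations used CPM + 0.5. The members and lists were chosen with earlier results of these data known. Named were the 25 most abundant genes, the top 3 of each other type with at least 10 expressed genes, up to 4 members per list with defining lineage markers, the leading member of each family, and the 20 most and 5 least variable annotated genes. Some of these genes, and 1 list, are not reported here. Alternatives were other thresholds and scales, scalings, filters and dispersion estimates, and leaving out each library.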

Additional observations from a re-analysis of the deposited data

Results flagged for a closer look

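In 7 of 178 quantities examined for the 6 libraries, 1 library lay apart from the others by more of the whole range than Dixon's critical value allows, where chance alone gives about 1 in 20. Library shNC-1 was the highest for RN7SL2, at 655 FPKM against 108 to 183 FPKM in the other libraries, for MT-CO3, at 3834 FPKM against 2994 to 3272 FPKM, and for MT-CYB, at 1838 FPKM against 1461 to 1560 FPKM. It was the lowest for the pseudogene FRG1CP, at 26.6 FPKM against 27.7 to 28.2 FPKM. VIM was highest in shNC-6, at 297 FPKM against 251 to 267 FPKM. IFIT3, an interferon-induced gene, was highest in shNC-2, at 12.6 FPKM against 6.00 to 8.23 FPKM. BNIP3L, a mitophagy receptor of the hypoxia list, was highest in shNC-3, at 56.8 FPKM against 37.1 to 44.3 FPKM.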

How the results depend on the processing

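No paired analysis was possible because one group alone is described and no comparison between groups was made. The number of expressed rows, 12209, was 18960 with a threshold of 0.1 FPKM and stayed within 1.5 times the reported number under the other thresholds; without one library each it was 12283 to 12353. The protein-coding share, 96.1% of counts, was 88.8% of summed FPKM, 96.7% without unannotated rows and 96.8% without the mitochondrial genome, and 96.1% to 96.2% without one library each. The 100 most abundant genes held 28.1% on the FPKM scale and 14.3% of counts without the mitochondrial genome, and 16.2% to 16.4% without one library each. Of the 25 most abundant genes 10 were shared once the mitochondrial genome was left out and 17 when ranked by CPM. With FPKM rebuilt on the longest annotated transcript 22 were shared, and without one library each 24 to 25. The number of expressed lineage markers, 34, became 55 at a threshold of 1 TPM, a lower level, and was 34 to 35 without one library each. The common BCV, 0.101, lay between 0.0872 (without shNC-1) and 0.107. The 13 variable genes became 100 when genes down to a mean of 1 CPM were ranked, 111 without moderation, 110 by a moment estimate, 77 by an SD of log2(FPKM + 1) of at least 0.4 and 171 at a BCV of 0.2, a threshold chosen after seeing the data. Without one library each they were 5 to 24, fewest without shNC-1 (5) and shNC-4 (6) and most without shNC-6 (24). Of the 20 most variable genes 9 were shared with the ranking by SD of log2(FPKM + 1) and 8 to 17 without one library each, 8 without shNC-1 and 11 without shNC-4. Restricting to genes of at least 1000 bp, also chosen after seeing the data, left 9. The causes were not tested. With 6 libraries a BCV is itself imprecise, and at 5 CPM counting error is still a large part of the spread.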
